A study of Mus musculus with 20 samples.

Results

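The comparison described here sets liver mRNA of mice given 75 mg/kg benzo(a)pyrene (BaP) against liver mRNA of mice given 50 mg/kg, the highest step of a dose series. All arrays labelled with these 2 doses were taken, which gave 5 arrays at 75 mg/kg (replicates 16 to 20) and 5 at 50 mg/kg (replicates 11 to 15), 10 of the 20 arrays of the series. The animals were male Muta™Mouse (transgenic mouse strain 40.6), which carries a *lacZ* reporter for mutations, aged 25 weeks. Both groups received BaP in olive oil by gavage each day for 28 days and were killed 3 days after the last dose. By their labels they differed in dose. The remaining arrays held 5 olive oil controls and 5 mice at 25 mg/kg. The labels name both liver and lungs as the tissue, and markers of both are given below. Each liver RNA was labelled with Cy5 and hybridized once against a Cy3-labelled universal mouse reference RNA, so that every level is a log2 ratio of liver over reference on that array, and a difference between doses is a difference of these log2 ratios.

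BaP is a polycyclic aromatic hydrocarbon that binds the aryl hydrocarbon receptor, induces the CYP1 enzymes and is oxidized by them to diol epoxides, which form bulky adducts on guanine. Bulky adducts are removed by nucleotide excision repair, and those that stall polymerases activate the damage kinases and the transcription factor p53. p53 in turn switches on genes that halt the cell cycle, that feed back on p53 itself and that carry out apoptosis.

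The step from 50 to 75 mg/kg was small against the spread between animals. Of 27345 probes with signal above the negative controls, 0 passed a Benjamini-Hochberg adjusted p under 0.05 with a fold change over 1.5 by limma (0% of the probes), and the smallest adjusted p by limma was 0.306. It belonged to the brightest probe of *Cplane1*, a gene outside the p53 lists (difference 1.31, unadjusted limma p 1.1e-05), in groups that overlapped. Its dimmer probes gave 0.76 and 0.55. *1700007K13Rik*, also outside the p53 lists, differed by 1.32 (unadjusted limma p 8.4e-05) in groups that overlapped. Both were named after their values were seen. At an unadjusted p under 0.05 there were 1890 probes (6.91%), of which 905 (3.31%) had higher and 985 (3.6%) lower levels at 75 mg/kg, where 1367 would be expected by chance. Of 38 gene lists examined, chosen with earlier results of these data known, that of p53-dependent arrest and feedback had the highest median difference. Of its 17 measured genes, 15 had higher mean levels at 75 mg/kg and 8 had an unadjusted p under 0.05, all 8 with higher levels. Among the 13001 named genes 52.6% had a higher mean (52.4% of probes) and 2.85% an unadjusted p under 0.05 with higher levels. Their median log2 difference was 0.42, where that of all genes was 0.01.

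*Ddit4l*, an inhibitor of mTOR signalling that is induced by p53 and other stress signals, had the largest difference of the list. Its log2 ratios at 50 mg/kg were 0.79, 0.30, 0.20, 0.18 and 0.65 in replicates 11 to 15, and at 75 mg/kg they were 0.89, 2.35, 2.76, 1.58 and 1.34 in replicates 16 to 20. The groups did not overlap, although replicate 16 at 75 mg/kg lay only just above replicate 11 at 50 mg/kg. The mean difference was 1.36 on the log2 scale (SE 0.26), a fold of 2.57, with an unadjusted limma p of 3.9e-05 and an adjusted p of 0.374. SEs, intervals and p-values by limma rest on a spread shared by all 20 arrays, while the SDs of *Ddit4l* were 0.28 at 50 and 0.76 at 75 mg/kg. Both of its dimmer probes had higher levels at 75 mg/kg as well, with differences of 1.16 and 0.73.

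*Cdkn1a*, which encodes the cyclin-dependent kinase inhibitor p21, measured -0.997, -0.67, -1.27, -1.67 and -1.22 at 50 mg/kg and -1.15, 0.27, -0.15, 0.12 and -0.11 at 75 mg/kg. Replicates 17 to 20 at 75 mg/kg lay above every array at 50 mg/kg, and replicate 16 lay within them. The difference was 0.96 (95% interval 0.51 to 1.41, unadjusted p = 0.00026, limma).

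*Rps27l* and *Psrc1* were the other members of the list whose groups did not overlap. *Rps27l*, a ribosomal protein S27 paralog that p53 induces, measured 0.66 to 1.19 at 50 mg/kg and 1.23 to 2.20 at 75 mg/kg, a difference of 0.67 (SE 0.19). *Psrc1*, which encodes a spindle-associated protein, measured -4.36 to -3.68 and -3.66 to -2.99, a difference of 0.68 (SE 0.18), but its 2 dimmer probes gave differences of 0.03 and -0.03. Non-overlapping groups of this direction were found for 3 of the 17 listed genes, for 0.215% of named genes and for 0.307% of probes, and in the opposite direction for 0 of the 17 and 0.369% of probes.

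The other list members with an unadjusted p under 0.05 had overlapping groups. *Phlda3*, a repressor of AKT signalling, was higher by 0.56 at 75 mg/kg, *Tigar*, a regulator of glycolysis, by 0.59, *Plk2*, a polo-like kinase, by 0.42, and *Zmat3*, an RNA-binding zinc finger protein, by 0.40. *Trp53inp1*, *Ccng1* and *Btg2* were measured at differences of 0.45, 0.48 and 0.32 and had unadjusted p values of 0.062, 0.073 and 0.051, and a dimmer probe of *Ccng1* gave 0.84. The feedback inhibitor *Mdm2*, the ubiquitin ligase that degrades p53, differed by 0.14 (95% interval -0.21 to 0.49; 1 array at 50 mg/kg had no value). *Gadd45a* and *Sesn1* had lower means at 75 mg/kg, with differences of -0.16 and -0.15.

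The p53 targets of the apoptosis list were less uniform. Of 13 genes measured, 8 had higher means at 75 mg/kg and 2 had an unadjusted p under 0.05, where 52.6% and 2.85% of named genes did so with higher levels, and the median difference was 0.04. *Aen*, an exonuclease that p53 induces, measured -0.02, -0.44, -0.45, -0.36 and -0.32 at 50 mg/kg and -0.21, 0.65, 0.60, 0.20 and 0.33 at 75 mg/kg. Replicate 16 was again the array at 75 mg/kg that lay among those at 50 mg/kg, and the difference was 0.63 (SE 0.15). *Eda2r*, a receptor of the tumor necrosis factor family, differed by 0.59 (SE 0.17). Among the effectors *Bax* differed by 0.34 (95% interval -0.17 to 0.84), *Apaf1*, the core of the apoptosome, by 0.22, *Fas* by -0.10, and *Bbc3*, which encodes PUMA, by -0.02. Where the array slide was fitted as a block, *Apaf1* differed by 0.41, with an unadjusted limma p of 0.0069. Genes of p53 itself, its relatives and the damage kinases had 1 positive difference among 7, with 0 at an unadjusted p under 0.05 and a median of -0.10. With slide as a block 3 of the 7 had a positive difference and the median was -0.05. In that fit 1 had an unadjusted p under 0.05 with lower levels, against 4.25% of named genes.

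**Figure D1:**
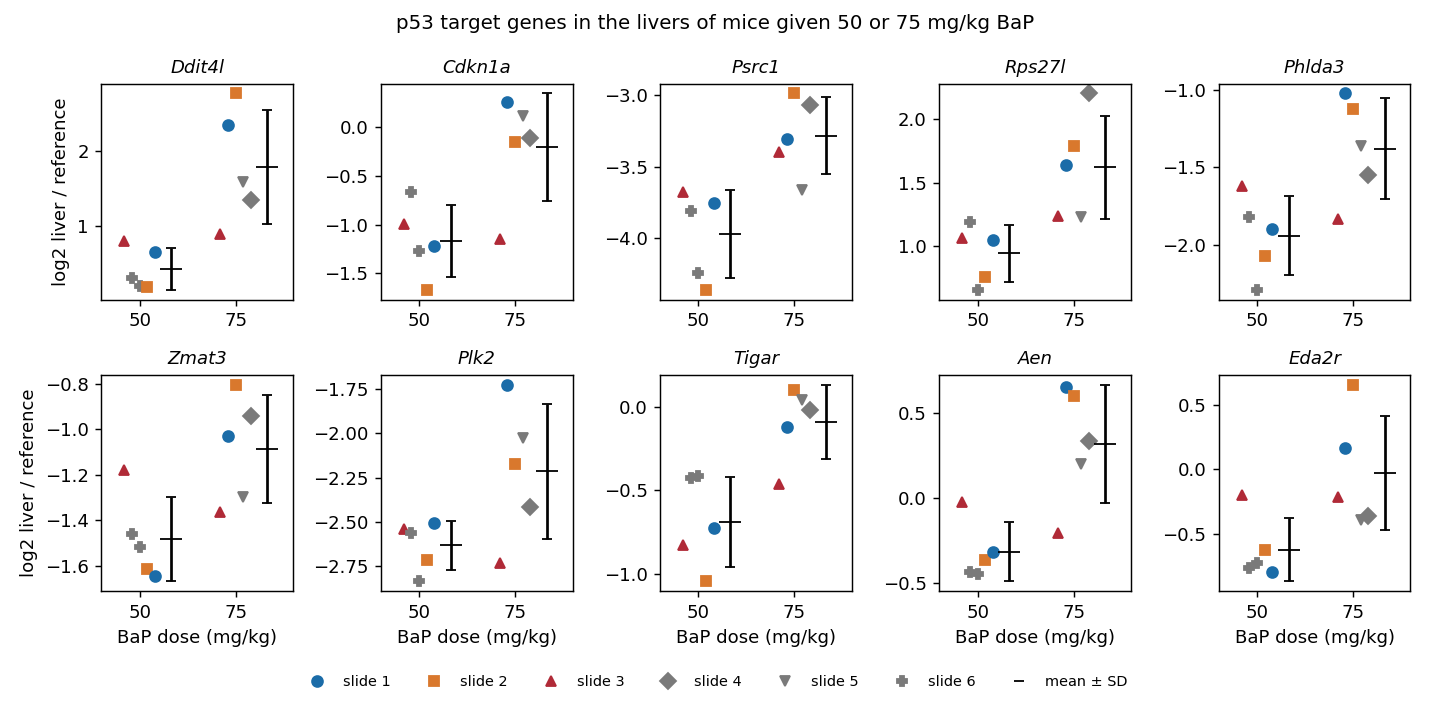
The log2 ratio of liver over reference (vertical axis, scaled to each gene) on each array at 50 and 75 mg/kg (horizontal axis) for the 10 p53 target genes with an unadjusted p under 0.05, with 1 point for each array, the slide given by the marker, and the group mean with its SD (n = 5) in black. The array of slide 3 at 75 mg/kg (replicate 16) lies near its slide mate at 50 mg/kg in most panels, while the arrays of slides 1 and 2 at 75 mg/kg lie above theirs in every panel.

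The p53 protein binds DNA as a tetramer at pairs of decamers, and the decamers near the leading genes are shown for that reason. The lists hold known p53 targets and were chosen with earlier results of these data known. The shares below describe the lists and are no separate evidence for the step. RefSeq promoter windows (GRCm38.p6, 250 bases before to 50 bases after each annotated start) were searched for the p53 decamer half-site, which is its own reverse complement, so that 1 search covered both strands. A match was held by 9 of the 16 arrest and feedback genes with a window (56.2%), by 4 of the 10 apoptosis genes with one (40%), and by 8.36% of all 32851 windows or 9.55% of the 27025 genes in the table. Of the 10 genes with an unadjusted p under 0.05, 9 had a window and 4 of these held a match, printed here 5′ to 3′ on the gene's strand with 6 bases on either side and the decamer in capitals. The coordinates are those of the printed stretches with their flanks. *Cdkn1a* held 2 at chr17:29090900-29090921 and chr17:29090922-29090943 (plus strand), *Rps27l* 2 at chr9:66946197-66946218 and chr9:66946300-66946321 (plus strand), *Ddit4l* 1 at chr3:137623576-137623597 (plus strand) and *Aen* 1 at chr7:78895931-78895952 (plus strand). The 2 stretches of *Cdkn1a* adjoin, but their decamers do not, because flanking bases of both lie between them. The decamer of *Aen* lay just past the first of its 2 annotated starts.
Cdkn1a, 73 bases before the start: gggtggGGACTAGCTTtctggc
Cdkn1a, 51 bases before the start: cttcagGAACATGTCTtgacat
Rps27l, 210 bases before the start: gggctcGGGCTTGCTTtccttc
Rps27l, 107 bases before the start: ttgttgAGACTTGTCCgggcga
Ddit4l, 90 bases before the start: tcccagGGGCTTGCCTgggccc
Aen: gaagccGGGCTTGTCCgggcaa
*Psrc1*, *Phlda3*, *Plk2*, *Tigar* and *Eda2r* had no match in their windows. Members with little difference held one too, among them *Mdm2*, *Gadd45a* and *Sesn1*.

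The difference in p53 targets varied by slide. Each slide carried 4 arrays, and 3 slides held an array of each dose: replicates 15 and 17 on slide 1, 14 and 18 on slide 2, and 11 and 16 on slide 3. Within slide 1 the median log2 difference of the 17 arrest and feedback genes was 0.45, within slide 2 it was 0.81, and within slide 3 it was 0.08. For *Ddit4l* the within-slide differences were 1.70, 2.59 and 0.09, for *Cdkn1a* 1.48, 1.52 and -0.15, and for *Aen* 0.97, 0.96 and -0.19. With slide as a fixed block the list median was 0.43, and 9 of the 17 genes had an unadjusted p under 0.05 with higher levels, against 4.57% of named genes and 4.21% of probes (8.85% of probes in either direction). Higher levels on all 3 slides were found for 8 of the 17 genes and for 18.4% of named genes, and lower levels on all 3 for 0 of the 17 and 14.1%.

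Averaged over the list and centred on the 10 arrays, the arrays at 50 mg/kg had means of -0.08, -0.11, -0.31, -0.42 and -0.15 in replicates 11 to 15, and those at 75 mg/kg had -0.06, 0.39, 0.41, 0.12 and 0.19 in replicates 16 to 20. Replicate 16 was the lowest of its group and replicate 11 the highest of its group, and the other arrays at 75 mg/kg lay above all of those at 50 mg/kg by a wider margin. On the same scale the controls lay between -0.64 and -0.26 and the 25 mg/kg arrays between -0.42 and -0.21.

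**Figure D2:**
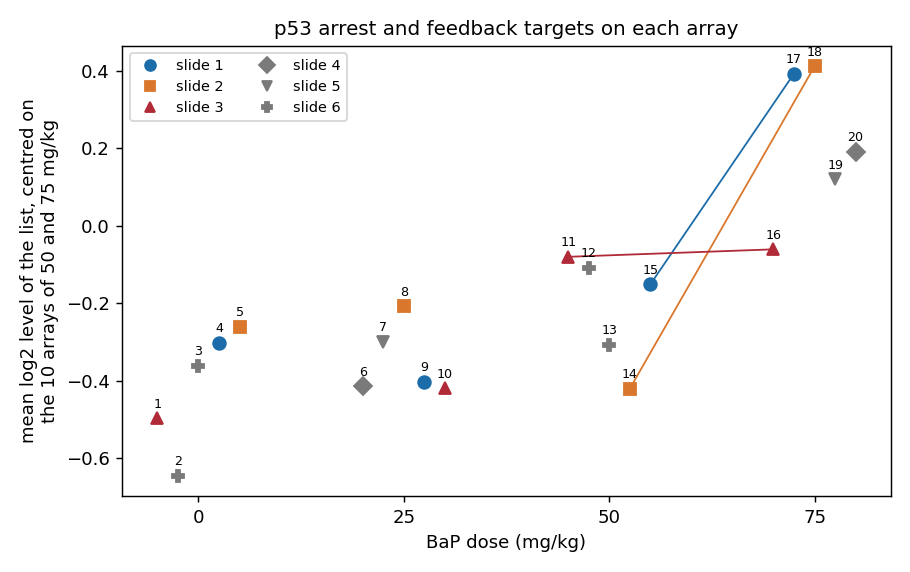
The mean log2 level of the 17 arrest and feedback genes on each array (vertical axis, centred gene by gene on the 10 arrays at 50 and 75 mg/kg) against BaP dose (horizontal axis), with the replicate number above each point, the slide given by the marker, and lines joining the arrays of 50 and 75 mg/kg on 1 slide. The lines of slides 1 and 2 climb from -0.15 to 0.39 and from -0.42 to 0.41, and the line of slide 3 is nearly level, from -0.08 to -0.06.

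Each of the 20 arrays was left out in turn, and the count of probes that passed changed most without replicate 16. This array had the lowest value of its group for *Ddit4l*, *Cdkn1a* and the brightest probe of *Aen*, so that leaving it out raises these differences. The values without it are a description and no further test of the step. Without it 6 probes passed the adjusted threshold by limma, all with higher levels at 75 mg/kg and 3 of them probes of p53 target genes: *Ddit4l* (log2 difference 1.58, adjusted p = 0.0202), *Cdkn1a* (1.20, adjusted p = 0.0202) and a dimmer probe of *Aen* (0.62, adjusted p = 0.0471). The remaining 3, named after their values were seen, were 2 probes of *Cplane1*, a gene of cilium assembly (1.48 and 0.88), and 1 of *1700007K13Rik* (1.56). Without replicate 11 at 50 mg/kg 1 probe passed, of *Cplane1* (1.51, adjusted p = 0.0157), and without replicate 19 at 75 mg/kg 1 passed, of the defensin gene *Defb1* (0.90, adjusted p = 0.0272). This *Defb1* probe was well above background on 1 array at 50 mg/kg and 4 at 75 mg/kg. The same counts held for the *Cplane1* probe with a difference of 0.88. The arrays also differed in place: all 5 arrays at 75 mg/kg were in the fourth position of their slide, 4 of the arrays at 50 mg/kg were in the third and replicate 13 was in the fourth, so that dose and position on the slide cannot be told apart. Signal was similar in the groups, with 52.5% to 62.4% of spots well above background on the arrays at 50 mg/kg and 52.98% to 61.4% at 75 mg/kg.

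**Figure D3:**
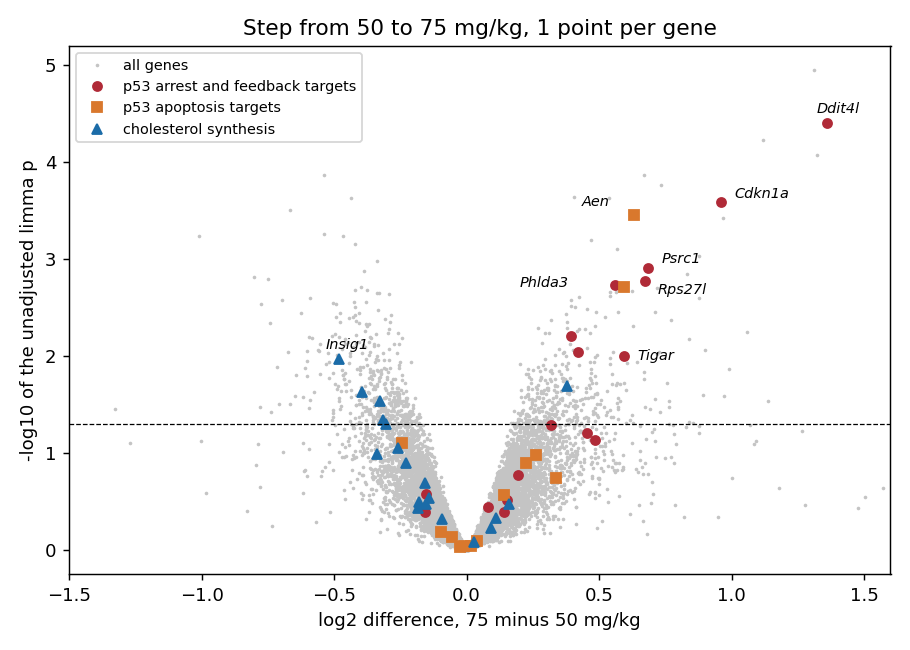
The log2 difference between 75 and 50 mg/kg (horizontal axis) and the −log10 of the unadjusted limma p (vertical axis) for 13001 named genes, each by its brightest probe, with members of 3 gene lists marked and the dashed line at a p of 0.05. The arrest and feedback targets of p53 lie mostly to the right, with 8 of 17 above the line, and the cholesterol synthesis genes mostly to the left, with 4 of 19 above the line on that side and 1 on the other.

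Among genes outside the p53 lists whose groups did not overlap, *Ltc4s*, the synthase of leukotriene C4, had the largest higher level. It measured 1.57, 1.38, 0.44, 1.28 and 1.26 at 50 mg/kg and 1.86, 3.15, 2.55, 2.04 and 1.93 at 75 mg/kg. The groups did not overlap and the difference was 1.12 (SE 0.22, a fold of 2.17), with an unadjusted limma p of 6e-05. *Endou*, an endoribonuclease, likewise had groups that did not overlap, -0.87 to -0.23 against -0.13 to 0.74, and differed by 0.67 (SE 0.14).

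*Ccnd1*, the cyclin that starts G1 progression, measured -1.82 to -1.39 at 50 mg/kg and -1.17, -1.11, -1.20, -1.27 and -0.07 at 75 mg/kg. All 5 arrays at 75 mg/kg lay above those at 50 mg/kg, and replicate 20 stood far above the rest of its group. The difference was 0.62 with all arrays and 0.40 without replicate 20. *Zfp445*, a zinc finger gene, was higher by 0.60 (95% interval 0.00 to 1.20) in groups that did not overlap, and by 0.38 without replicate 13 at 50 mg/kg. Its other 2 probes gave 0.38 and 0.14, in groups that overlapped.

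*Sftpd*, surfactant protein D, which is made chiefly by lung epithelium and also by other epithelia, measured 1.35, 0.79, 1.19, 1.53 and 1.53 at 50 mg/kg and 1.58, 2.18, 2.56, 1.77 and 2.68 at 75 mg/kg, a difference of 0.88 (SE 0.25) in groups that did not overlap. The other 5 measured lung epithelium markers had differences between -0.14 and 0.08, and of the 6 only *Sftpd* had an unadjusted p under 0.05. The averages of this list on the centred scale ranged from -0.15 to 0.05 at 50 mg/kg and from -0.13 to 0.21 at 75 mg/kg. *Ager* was well above background on 1 of the 20 arrays and *Scgb1a1*, the club cell secretoglobin, on 5, while *Alb*, the hepatocyte serum albumin gene, was so on all 20 and differed by -0.01 between the doses.

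Lower levels at 75 mg/kg in groups that did not overlap, with a fold over 1.5, were found for 4 of the probes with a gene symbol. Without the limit on fold, 0.331% of named genes and 0.369% of probes had groups that did not overlap in this direction. *Ccr3*, the eotaxin receptor, measured 0.74 to 1.35 at 50 mg/kg and 0.21 to 0.55 at 75 mg/kg, a difference of -0.67 (SE 0.15). *Nr2f2*, the orphan receptor COUP-TFII of endothelial and mesenchymal cells, measured -1.25 to -0.59 and -1.80 to -1.27. Its difference was -0.62 without and -0.93 with slide as a block, and the within-slide values were -0.68, -1.09 and -0.68. *Krt23*, a keratin gene, differed by -0.62. *Mrpl35*, of the mitochondrial ribosome, differed by -0.99, but its brighter probe gave -0.12. With slide as a block the smallest adjusted p by limma, 0.0697, belonged to *Soat1*, which esterifies cholesterol (difference -1.11 with and -0.75 without the block), named after its values were seen.

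Genes of cholesterol synthesis, which the sterol-sensing factor SREBP2 drives as a group, had mostly lower means at 75 mg/kg. Of 19 measured, 14 had a negative difference, 4 with an unadjusted p under 0.05 against 3.27% of named genes, and the median was -0.18. *Insig1*, the sterol sensor that holds back SREBP, measured 2.75, 2.60, 2.86, 2.74 and 2.69 at 50 mg/kg and 2.21, 2.15, 1.75, 2.85 and 2.28 at 75 mg/kg. The groups overlapped through replicate 19 alone, and the difference was -0.48 (SE 0.17), while its other probe gave 0.01. Mevalonate kinase (*Mvk*) differed by -0.39, lanosterol demethylase (*Cyp51*) by -0.33 and farnesyl diphosphate synthase (*Fdps*) by -0.31, while *Tm7sf2*, a sterol reductase, was higher by 0.38. Fitted with the block, *Tm7sf2* differed by 0.23, with an unadjusted limma p of 0.16. Within slides the list median was -0.52 on slide 1, -0.30 on slide 2 and 0.11 on slide 3, so that slide 3 stood apart here as for the p53 targets. With slide as a block the median was -0.19 and 5 genes had an unadjusted p under 0.05 with lower levels, against 4.25% of named genes.

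Markers of nonparenchymal cells differed in both directions, and in whole tissue a change in the number of such cells and a change in their RNA content cannot be told apart. Of 18 general endothelial genes 14 were higher at 75 mg/kg and 4 had an unadjusted p under 0.05 with higher levels, against 52.6% and 2.85% of named genes, with a median of 0.19. The same 4 genes had an unadjusted p under 0.05 with slide as a block. *Rasip1*, a regulator of vessel lumens, measured 1.096 to 1.40 at 50 mg/kg and 1.44 to 1.71 at 75 mg/kg, a difference of 0.40 in groups that did not overlap and of 0.52, 0.51 and 0.28 within slides. *Mmrn2*, an endothelial matrix protein, differed by 0.57 and the adhesion receptor *Icam2* by 0.38, but *Pecam1* and *Cldn5*, which are classical markers of the same cells, differed by -0.01 and -0.00. The list averages ranged from -0.21 to 0.08 at 50 mg/kg and from -0.17 to 0.32 at 75 mg/kg.

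*Lyve1*, the hyaluronan receptor of sinusoidal endothelium, measured 3.98, 2.80, 2.09, 3.22 and 3.45 at 50 mg/kg and 3.78, 4.84, 4.64, 3.26 and 3.88 at 75 mg/kg. These groups overlapped, and the difference of 0.97 (95% interval 0.13 to 1.82) stood against differences of -0.13 to 0.13 in the other 9 sinusoidal markers. Its dimmer probe gave 0.19.

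Of 14 Kupffer cell markers 9 had lower means at 75 mg/kg, with a median of -0.08, or -0.20 with slide as a block. The scavenger receptor *Msr1* differed by -0.41 and the growth factor receptor *Csf1r* by -0.37, and these 2 had an unadjusted p under 0.05, against 3.27% of named genes with lower levels. With slide as a block 4 of the 14 had one with lower levels, against 4.25% of named genes, and 1 of the 14 had a positive difference. *Marco*, another scavenger receptor of the same cells, was measured at a difference of 0.48 (95% interval -0.14 to 1.09). The averages of this list overlapped, from -0.26 to 0.39 at 50 mg/kg and from -0.31 to 0.16 at 75 mg/kg.

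**Figure D4:**
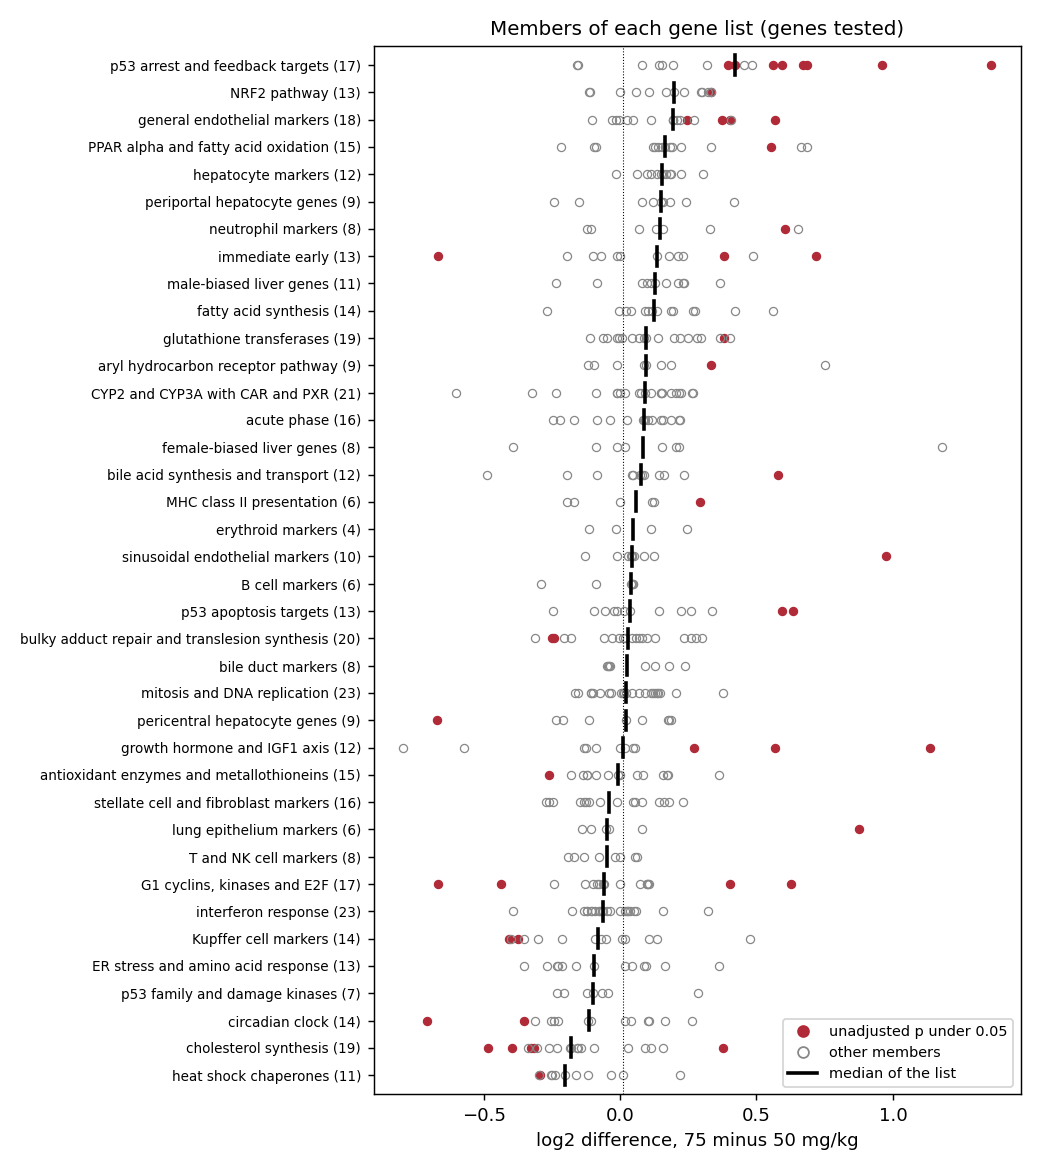
The log2 difference between 75 and 50 mg/kg (horizontal axis) of each measured member of 38 gene lists (vertical axis, number of genes in brackets, ordered by median), with filled points for an unadjusted p under 0.05, a bar at the list median and a dotted line at the median of all genes. The median of the arrest and feedback targets, 0.42, is the highest of the 38, and those of the other lists lie between -0.20 and 0.20.

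Genes of BaP metabolism had mostly small differences in this step by their brightest probes. Among 9 genes of the aryl hydrocarbon receptor pathway the quinone reductase *Nqo1* was the single member with an unadjusted p under 0.05, at a difference of 0.33. Of named genes 2.85% had one with higher levels. *Cyp1a2*, an oxidase of aromatic compounds that hepatocytes express without induction, differed by 0.19 (95% interval -0.14 to 0.52). *Cyp1a1*, the classical inducible target of the receptor, measured -0.05, 0.12, 0.29, 0.38 and 0.00 at 50 mg/kg and 3.64, 0.07, 0.07, 0.21 and 0.49 at 75 mg/kg. Replicate 16 alone was high, above every other array of the series. The same array had the lowest average of the arrest and feedback list in its group. The average of the p53 apoptosis list was lowest in replicate 20 (-0.061, against -0.033 in replicate 16). *Cyp1a2*, at 4.41 in replicate 16, lay within the 4.03 to 4.54 of the other arrays at 75 mg/kg, while on its dimmer probe replicate 16, at 5.29, was the highest of its group, whose other arrays measured 5.02 to 5.17. *Cyp1b1*, at -1.94, was the highest of its group, whose other arrays measured -2.50 to -2.15, but lay within the -2.48 to -1.62 of the arrays at 50 mg/kg.

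Of 21 CYP2 and CYP3A genes and their regulators CAR and PXR, 15 were higher at 75 mg/kg by their brightest probe and 0 had an unadjusted p under 0.05 by limma on that probe, and with slide as a block 8 were higher. Of the 13001 named genes 52.6% were higher, and with slide as a block 6924 were. The brightest probe of *Cyp3a44*, a female-predominant steroid hydroxylase, measured 5.24 to 6.42 at 50 mg/kg and 5.77 to 6.28 at 75 mg/kg, a difference of 0.20 (95% interval -0.33 to 0.74), while its other, dimmer probe gave 1.20, with an unadjusted limma p of 0.0071, and 1.54 with slide as a block. On that probe the arrays measured 1.14, 1.68, 3.94, 1.82 and 2.31 at 50 mg/kg and 3.22, 4.31, 3.70, 3.44 and 2.26 at 75 mg/kg, and the groups overlapped through replicates 13 and 20. Against control at 75 mg/kg the dimmer probe measured 2.86 and passed the adjusted threshold by limma, while the brightest probe measured 0.52 and did not. Which probe measures *Cyp3a44* was not tested. The CYP3A and CYP2 genes are close paralogs, and cross-hybridization between them is uncertain. *Cyp2b9* differed by 0.15 (95% interval -0.33 to 0.64), *Cyp2c38* by 0.11 and *Cyp2c40* by 0.22. Of 19 glutathione transferases 14 were higher, against 52.6% of named genes, with a median of 0.10, or -0.0030 with slide as a block. *Gstm3*, which conjugates electrophiles to glutathione, differed by 0.38 without and 0.14 with the block, *Gstm4* by 0.10 (95% interval -0.17 to 0.36) and *Gstm7* by 0.20. Of 13 genes of the NRF2 pathway, the sensor of electrophiles, 10 were higher, against 52.6% of named genes, with a median of 0.20. *Nqo1* alone had an unadjusted p under 0.05, against 2.85% of named genes with higher levels.

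Genes of cell division and repair were close to level. Of 23 genes of mitosis and DNA replication 0 had an unadjusted p under 0.05 by limma and the median was 0.02, and *Ccnb2*, *Prc1* and *Birc5*, of the mitotic machinery, differed by 0.11, 0.09 and 0.15. Of 20 genes for the repair of bulky adducts and for translesion synthesis, 12 were higher, and the 2 with an unadjusted p under 0.05 had lower levels: *Ercc3*, a helicase of excision repair, by -0.25, in groups that only just did not overlap, and *Xpc*, which recognizes the lesion, by -0.24. Among named genes 52.6% were higher, 3.27% had an unadjusted p under 0.05 with lower levels and 0.331% had groups that did not overlap, with lower levels. In the blocked fit *Ercc3* differed by -0.27 and *Xpc* by -0.22, with unadjusted limma p values of 0.017 and 0.061. *Cdk2* differed by -0.44 in groups that did not overlap, but was well above background on 3 arrays at 50 mg/kg and 2 at 75 mg/kg. *Igf1*, the growth factor secreted by hepatocytes, differed by 0.27 without and 0.16 with slide as a block. Of 12 hepatocyte markers 11 were higher, against 52.6% of named genes, with a median of 0.15. With the block 8 were higher, with a median of 0.03.

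Signalling genes of the liver varied widely between animals. *Socs2*, the growth hormone-induced suppressor of cytokine signalling, measured 1.23, 1.71, 0.95, 2.01 and 0.13 at 50 mg/kg and 2.47, 3.07, 2.19, 0.34 and 3.64 at 75 mg/kg. Replicates 16, 17, 18 and 20 lay above all arrays at 50 mg/kg and replicate 19 among them, and the difference was 1.14 (95% interval 0.13 to 2.14). That interval uses the spread shared by all 20 arrays, while the SDs of *Socs2* were 0.73 at 50 and 1.25 at 75 mg/kg. *Igfbp1*, a secreted binding protein of insulin-like growth factors, differed by 0.57, so that with *Igf1* 3 of the 12 genes of this axis had an unadjusted p under 0.05 with higher levels, against 2.85% of named genes. Under the slide block 0 of the 12 did by limma, with unadjusted p values of 0.056 for *Socs2*, 0.18 for *Igfbp1* and 0.21 for *Igf1*.

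Of 13 immediate early genes 8 were higher, against 52.6% of named genes. Among the 13, 3 had an unadjusted p under 0.05: the transcription factors *Klf4* and *Jun*, with differences of 0.72 and 0.38, and *Myc*, with -0.67, against 2.85% of named genes with higher and 3.27% with lower levels. With slide as a block 0 of the 13 had one by limma, with unadjusted p values of 0.051, 0.061 and 0.068 for these genes. *Egr1*, a factor of the same group, ranged from -3.27 to -0.98 at 50 mg/kg and from -2.57 to -0.52 at 75 mg/kg and differed by 0.49 (95% interval -0.38 to 1.35). Of 14 clock genes 2 had an unadjusted p under 0.05, the repressors *Per3* and *Cry2*, with differences of -0.71 and -0.35, against 3.27% of named genes with lower levels. With slide as a block the p of *Per3* was 0.13, that of *Cry2* 0.036, and the list median went from -0.11 to -0.0031. Of 11 heat shock chaperones 9 had lower means at 75 mg/kg, with a median of -0.20, where 6159 of the 13001 named genes had lower means. *Hspa1b* alone had an unadjusted p under 0.05, at -0.29, against 3.27% of named genes with lower levels. With slide as a block the median was -0.12 and the p of *Hspa1b* 0.061. Of 23 interferon response genes 0 did by limma, with a median of -0.06.

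Whether the step from 50 to 75 mg/kg differed from that between 25 and 50 mg/kg was tested directly, as the difference of the differences. By limma 0 of 27345 probes passed the adjusted threshold (0%), and 2647 (9.68%) had an unadjusted p under 0.05. In the step from 25 to 50 mg/kg itself 8.29% of probes had an unadjusted p under 0.05, and 8 of the 19 cholesterol synthesis genes had one with higher levels at 50 mg/kg, against 4.72% of named genes. For *Ddit4l* the step from 25 to 50 mg/kg measured 0.23 and that from 50 to 75 mg/kg 1.36, and the difference of 1.13 had an unadjusted p of 0.0205. For *Cdkn1a* the steps were 0.56 and 0.96, and for *Ltc4s* they were 0.80 and 1.12. *Insig1* measured 0.76 and then -0.48, and *Nr2f2* 0.56 and then -0.62. Both steps use the arrays at 50 mg/kg, so that a high or low group at 50 mg/kg moves them in opposite directions. Of the arrest and feedback genes 3 of 17 had a difference between the steps with an unadjusted p under 0.05 and a larger second step, where 3.62% of named genes did. Among these 3 was *Rps27l*, whose level was lower at 50 than at 25 mg/kg. Its means were 0.83 in controls, 1.36 at 25 mg/kg, 0.95 at 50 mg/kg and 1.62 at 75 mg/kg.

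Over all probes the arrays did not fall into the 2 dose groups. The mean correlation distance between arrays of different doses exceeded that within doses by 0.0464 (exact permutation test over 252 relabellings, one-sided p = 0.254, where the smallest possible p is 0.00794), and for 6 of the 10 arrays the nearest array was of the same dose. For 1 of the 10 it was on the same slide, where 8 had another of the 10 on their slide. The first principal component of the 10 arrays held 32.6% of the variance, and 74.2% of the spread along it lay between slides and 10.05% between doses. These 2 shares cannot be compared directly, because 10 arrays on 6 slides leave a large share between slides by their number alone.

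A last description takes the probes that passed the adjusted threshold at 75 mg/kg against the controls, which were 37 (0.135% of the probes), 36 of them higher. They were chosen with the same 75 mg/kg arrays that enter the step, which favours a positive step, so no test is given. Of the 36, 35 had a positive step, and a median of 49.6% of their rise over control lay between 50 and 75 mg/kg. The share was 83.2% for *1700007K13Rik*, 82.5% for *Ddit4l*, 80.9% for *Tmem43*, a nuclear membrane protein gene, 59.9% for *Cdkn1a* and 49.3% for *Ltc4s*. It was 21.7% for *Marco*, 15.2% for *Gstm4*, 5.38% for *Fasn*, the fatty acid synthase, and -7.73% for a probe of *H2-Ab1*, an MHC class II chain, whose brightest probe was higher by 0.12 in the step. The log2 levels over control at 50 and at 75 mg/kg were 0.29 and 1.65 for *Ddit4l*, and 0.70 and 0.74 for *Fasn*.

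**Figure D5:**
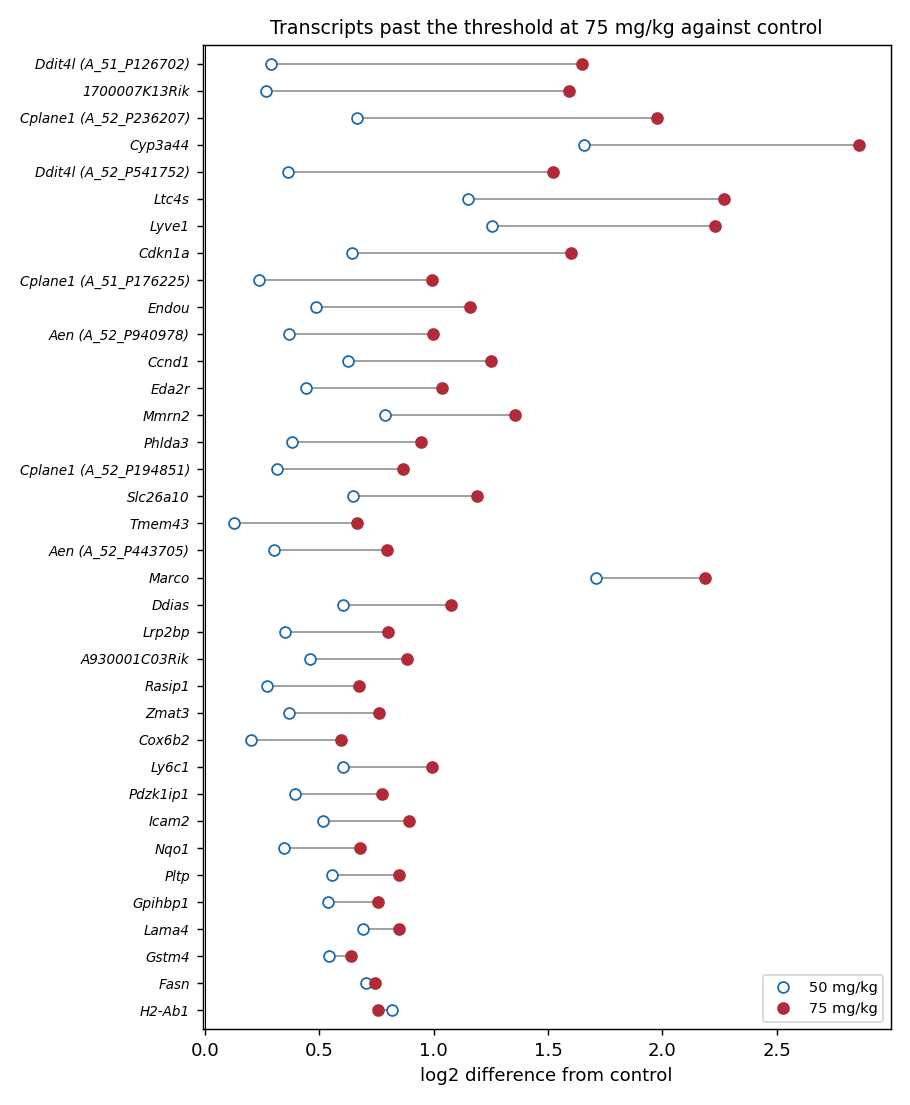
The log2 difference from control (horizontal axis) at 50 mg/kg (open circles) and 75 mg/kg (filled circles) for each of the 36 probes that passed the threshold at 75 mg/kg with higher levels (vertical axis, ordered by the step, with the probe given where a gene has several). The distance between the circles is 1.36 for *Ddit4l* at the top, and at the bottom *Fasn* and *H2-Ab1* have nearly the same level at both doses.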

How the data were processed

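Liver RNA (Cy5) and reference RNA (Cy3) were hybridized on Agilent mouse arrays with 4 arrays to a slide. The median spot and background intensities deposited by the authors came from Feature Extraction (per the file headers version 10.1.1.1, while the paper names another). The processed intensities deposited by the authors were background subtracted and dye normalized, and LOWESS had been applied to the log2 ratios that the authors deposited. The study removed 1 unnamed sample, and all 20 arrays were kept here.

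Of 45018 features, 43379 were not controls, giving 41174 probes. Intensities were corrected by normexp (offset 50) and normalized by loess, and spots of 1 probe were averaged. A probe was kept if its signal on 4 of 5 arrays of any group was above a limit set from 153 negative controls (mean and 3 SDs, each after 5% trimming), which left 27345, of which 18230 had a symbol (23374 of all probes through RefSeq and 34 through the supplementary list) for 13001 genes. A gene was represented by its brightest probe. limma 3.58.1 in R 4.3.3 was fitted to 20 arrays (lmFit, eBayes, Benjamini-Hochberg adjustment, fold over 1.5), in place of MAANOVA. The code was tested on simulated data.

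Genes named by rule were those of non-overlapping groups with a fold over 1.5 (at most 10 in each direction by p). The rule also took genes that the study names and up to 2 of each list at an unadjusted p under 0.05. Other genes, among them *Phlda3*, *Tigar*, *Plk2*, *Mvk*, *Icam2*, *Myc*, *Tmem43* and *Fasn*, were outside this rule. They were named with their values known, which the text says for only some of them. Members and lists were chosen with earlier results of these data known. Alternatives were the 10 arrays alone, slide as a fixed or random block, other signals and filters, array weights, a robust prior, each array left out, and, added after seeing the data, slides 1 to 3 alone. Figures used Python 3 and matplotlib.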

Additional observations from a re-analysis of the deposited data

Results flagged for a closer look

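In 13 of 172 groups of 5 arrays examined for the named genes, 1 array stood apart from the other 4, with a gap to its nearest neighbour above 0.71 of the group's range. Chance flags about 1 in 20 groups. The largest gap was 0.881, for *Cyp1a1* at 75 mg/kg, where replicate 16 measured 3.64 on the log2 scale and the next array 0.49. *Il1b* measured -0.082 on the same array, 0.829 of the range from the rest.

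At 75 mg/kg replicate 20 stood apart for *Ccnd1* (-0.075), *Gadd45a* (-1.29) and *Tm7sf2* (6.16), replicate 18 for *Birc5* (-3.77) and replicate 19 for *Cyp2b9* (5.65). At 50 mg/kg replicate 13 stood apart for *Ltc4s* (0.44) and *Zfp445* (0.59), replicate 12 for *Mrpl35* (0.60) and *Sesn1* (-0.37), replicate 14 for *Tnfrsf10b* (-1.32) and replicate 11 for the brightest probe of *Cplane1* (-0.019). The part of these arrays in the gene differences beyond the values given without them was not tested.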

How the results depend on the processing

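The 20 arrays were each left out in turn, and 12 other settings were tried. With all arrays 0 probes passed the adjusted threshold under every one of those 12 settings, with a smallest adjusted p by limma between 0.0697 (slide as a fixed block) and 0.762 (10 arrays alone). With 1 array left out, 0 to 6 probes passed (6 without replicate 16, 1 each without replicates 11 and 19), and 0 to 2 of the list genes passed by their brightest probe. The number of arrest and feedback genes of p53 with an unadjusted p under 0.05 and higher levels stayed between 8 and 11 of 17 over all settings, and their median between 0.33 and 0.54. Probes with an unadjusted p under 0.05 numbered 391 higher and 258 lower in the liver channel alone, 1654 and 1544 with array weights, 988 and 730 with the processed signals, and 1167 and 953 with no background correction. Each of these settings turned the split from fewer to more higher probes. Leaving out replicate 15 (1168 and 986) or replicate 18 (786 and 683) did so too. With 1 array left out they ranged from 442 to 1414 higher and from 574 to 1450 lower, and were fewest without replicate 20 (442 and 607) or replicate 13 (495 and 574); the cause was not tested. For the difference between the steps, 1 probe passed with slide as a fixed block (*Soat1*) and 0 to 3 with 1 array left out, the 3 without replicate 19. The separation of the arrays was -0.0639 in the liver channel alone and ranged from -0.0239 to 0.159 with 1 array left out, below 0 without replicates 11, 13 or 20.

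Of 58 named probes 52 kept their sign under all settings. The others were near 0. *Cyp3a44* measured -0.062 with slide as a block, -0.31 in the liver channel alone and -0.059 on slides 1 to 3, *Cyp2b9* -0.0071 with the block and -0.14 in the liver channel, *Cyp2c40* -0.024 with the block, *Gstm4* -0.12 on slides 1 to 3, and *Cyp2c38* -0.012 to 0.23 with 1 array left out. *Myod1*, not well above background on most arrays, measured 0.0186 with the processed signals, 0.0194 in the liver channel, 0.0052 on slides 1 to 3 and -0.021 to 0.030 with 1 array left out. The groups share no replicate numbers, so that no pairing by number could be made, and the pairs of arrays on slides 1 to 3 were analysed with slide as a block. Groups of 5 animals limit the step to large differences, and p-values measure the spread between these animals and arrays.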
